A study of Mus musculus with 6 samples.

Results

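Kupffer cells are the resident macrophages of the liver, and 10 genes that mark them were followed in whole liver after a short exposure to interleukin-6 (IL-6). The genes are Adgre1, Clec4f, Cd68, Csf1r, Marco, Vsig4, Timd4, Cd5l, Cd163 and Mpeg1. They were taken by symbol from the platform table of the arrays, which gives each of them exactly 1 probe set, and they are 10 of 19938 genes measured. The IL-6 livers came from mice given 100 ng of IL-6 per mouse into the peritoneal cavity, and the control livers from mice given saline by the same route, both taken 1 h after the injection. All animals were C57BL6 males, 10 weeks old and fasted for 16 h, and there were 3 arrays of IL-6 livers and 3 of saline livers. The labels number the arrays within each group and do not say whether every array had a mouse of its own, so the p-values measure only the spread between arrays, which may be technical. Values are log2 expression per probe set from 1-colour Affymetrix arrays, a scale on which a difference of 1 is a 2-fold change. The number of arrays limits the precision, and no depth applies.

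Kupffer cells sit inside the liver sinusoids, where they clear particles, dying cells and senescent red blood cells from the blood. Their survival depends on the growth factor receptor encoded by Csf1r. They recognise their cargo through lectins, complement receptors and scavenger receptors, and several of the 10 genes encode such surface proteins. IL-6 binds a receptor that acts together with gp130 to activate STAT3, a transcription factor, and in liver it is best known for switching on acute-phase genes in hepatocytes.

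None of the 10 Kupffer cell genes differed between IL-6 and saline livers beyond the test's threshold. In limma, a linear model fitted to all genes with p-values adjusted over all of them, 0 of 10 members passed at an adjusted p of 0.05, with adjusted p-values from 0.697 to 0.979. Among all genes 0.421% passed in either direction, 0.386% higher and 0.0351% lower, so a count of 0 among 10 genes is near that background. At an unadjusted limma p of 0.05, 1 of 10 members passed, Timd4, against 6.62% of all genes. In no member did the 3 IL-6 values lie all on one side of the 3 saline values, as they did in 11.6% of all genes. The log2 differences, IL-6 minus saline, ran from -0.07 for Cd5l to 0.25 for Timd4, with 9 of 10 above 0 against 51.1% of all genes. Their median was 0.08, against 0.003 for all genes. In the marker lists of other cell types, the share above 0 ran from 2 of 9 for T and NK cells to 9 of 10 for stellate cells. The direction of the members rested on 1 array: without IL-6 replicate 2, 4 of 10 member differences were above 0 and their median was -0.01. In whole liver, a change in the number of Kupffer cells and a change in RNA per cell cannot be told apart.

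**Figure D1:**
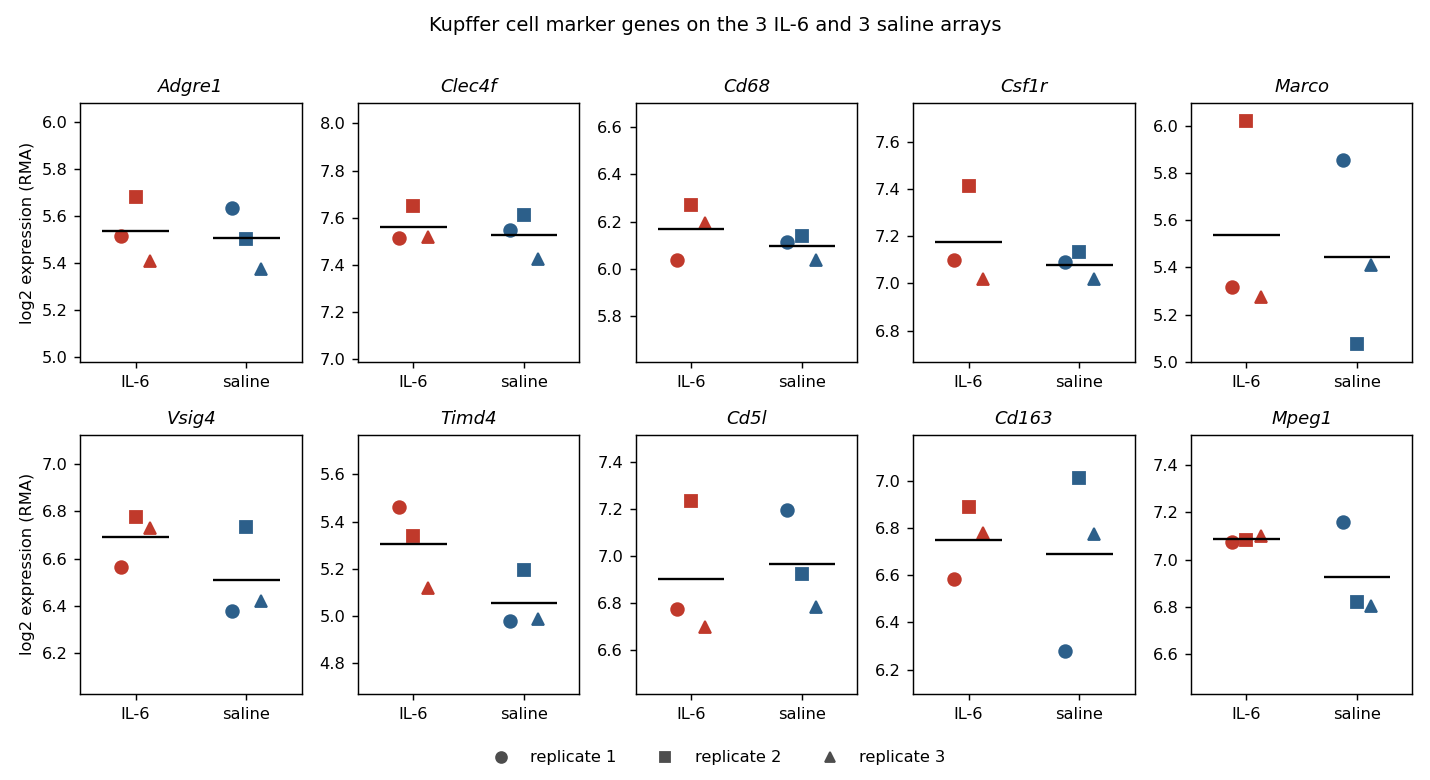
Log2 expression (RMA) of each Kupffer cell gene on the 3 IL-6 arrays (red, left) and the 3 saline arrays (blue, right). Marker shape gives the replicate number, horizontal lines are group means, and all panels span the same range on the y axis. The groups overlap in all 10 genes, and the red square, IL-6 replicate 2, is the highest of the 6 points in 7 of them.

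The intervals bound how large a change these arrays leave room for. The 95% confidence intervals from limma included 0 for 9 of 10 members, Timd4 being the exception. The upper bounds ran from 1.16-fold for Clec4f to 1.52-fold for Marco, so all 10 stayed under 2-fold. The lower bounds ran from 0.746-fold for Marco to 1.01-fold for Timd4. These are bounds before adjustment for the number of genes tested. Standard errors of the members ran from 0.08 to 0.23, with a median of 0.106 against 0.089 for all genes, and 8 of 10 members had a larger standard error than the median gene. All 10 members had mean values above the 25th percentile of all genes (4.59). Background per probe set could not be assessed from these values.

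**Figure D2:**
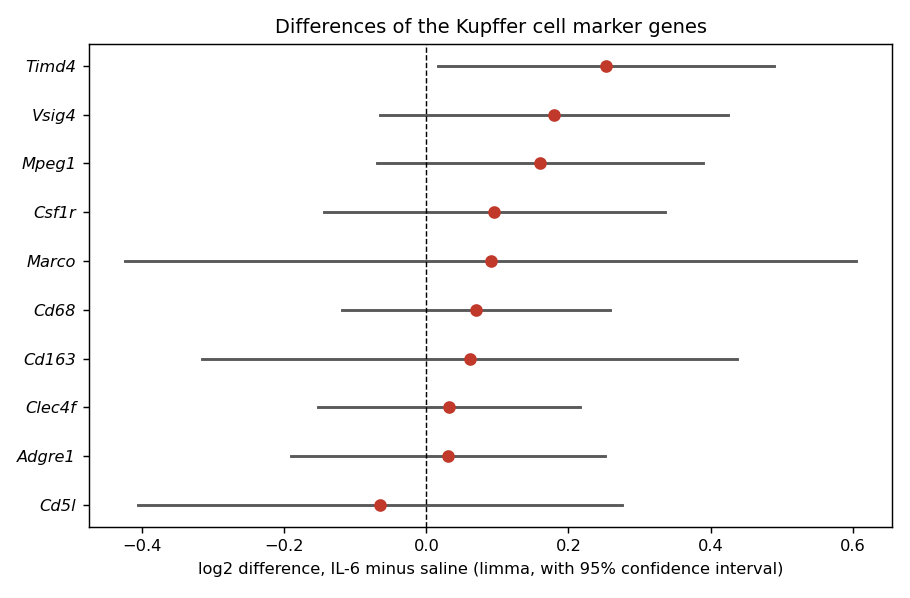
Log2 difference of each Kupffer cell gene, IL-6 minus saline, with its 95% confidence interval from limma (n = 3 arrays in each group). Points are the differences, lines the intervals and the dashed line marks 0. Intervals of 9 of the 10 genes cross 0, and Marco, at 0.09, has the widest.

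Socs3 was read as a check that IL-6 had acted. This gene, which encodes a feedback inhibitor of JAK-STAT signalling, had 9.57, 9.45 and 9.63 on the IL-6 arrays, against 6.61, 6.42 and 6.18 on the saline arrays. The groups lay far apart, differing by 3.15 ± 0.11 on the log2 scale (± standard error here and below, limma adjusted p = 1.45e-06). To show the DNA next to these genes, the 250 bases before the RefSeq start of 3 members and of Socs3 are printed here (build GRCm38.p6). Clec4f was taken as the most Kupffer-restricted of the members and Timd4 and Vsig4 as those with the smallest p. Each sequence runs 5′ to 3′ on the gene's own strand. Capitals mark matches to TTCNNNGAA, the palindrome that STAT proteins bind, and to GAGGAA on either strand, a core of sites for the macrophage factor PU.1. The 2 motifs share no bases in these windows.
Clec4f, chr6:83656117-83656366, minus strand: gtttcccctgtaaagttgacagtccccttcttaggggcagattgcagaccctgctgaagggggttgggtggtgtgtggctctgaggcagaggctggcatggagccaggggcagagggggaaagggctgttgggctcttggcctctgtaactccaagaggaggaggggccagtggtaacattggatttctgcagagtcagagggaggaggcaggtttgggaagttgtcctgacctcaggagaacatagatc
Timd4, chr11:46810549-46810798, plus strand: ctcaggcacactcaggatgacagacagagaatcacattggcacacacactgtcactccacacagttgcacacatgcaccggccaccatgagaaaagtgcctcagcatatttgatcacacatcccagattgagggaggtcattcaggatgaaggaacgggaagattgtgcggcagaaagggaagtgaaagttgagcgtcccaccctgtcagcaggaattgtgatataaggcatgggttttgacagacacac
Vsig4, chrX:96293439-96293688, minus strand: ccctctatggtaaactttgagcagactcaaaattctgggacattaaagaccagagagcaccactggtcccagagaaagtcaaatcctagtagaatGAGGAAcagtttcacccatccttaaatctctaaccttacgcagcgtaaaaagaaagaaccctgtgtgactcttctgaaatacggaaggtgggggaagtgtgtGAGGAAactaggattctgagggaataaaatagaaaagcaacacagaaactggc
Socs3, chr11:117969367-117969616, minus strand: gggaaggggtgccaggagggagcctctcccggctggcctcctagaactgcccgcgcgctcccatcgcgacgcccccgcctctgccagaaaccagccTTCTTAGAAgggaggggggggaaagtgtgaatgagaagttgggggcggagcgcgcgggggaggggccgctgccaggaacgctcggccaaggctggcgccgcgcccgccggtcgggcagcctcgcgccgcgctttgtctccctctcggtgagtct

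RefSeq windows of this kind were matched by symbol for 8 of the 10 members, all but Adgre1 and Csf1r. The STAT motif TTCNNNGAA was found in 0 of 8 members' windows, against 7.02% of 32851 windows of the same length, so a count of 0 among 8 is near that share. In the Socs3 window it occurred once, 154 to 146 bases before the start. The PU.1 core GAGGAA was found in 4 of 8 members' windows, those of Cd68, Marco, Vsig4 and Cd5l, against 23.3% of all windows. Vsig4 held 2 copies, 155 to 150 and 53 to 48 bases before the start, both visible in capitals above. A match is a string of letters and not a shown binding site.

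Csf1r and Adgre1 mark macrophages as a lineage. Csf1r encodes the receptor for the growth factors CSF1 and IL-34, on which Kupffer cells depend. It had 7.10, 7.41 and 7.02 on the IL-6 arrays, against 7.09, 7.14 and 7.02 on the saline arrays. IL-6 replicate 2 stood above the other 5 arrays, which lay close together, and the log2 difference was 0.10 ± 0.11 (limma adjusted p = 0.947). Without IL-6 replicate 2 it was -0.02. Adgre1 encodes the adhesion receptor by which mouse macrophages are usually stained. Its values were 5.52, 5.68 and 5.41 in IL-6 livers, against 5.64, 5.50 and 5.38 in saline livers. The 2 groups covered nearly the same range, and the difference was 0.03 ± 0.10 (limma adjusted p = 0.979), the largest p of the 10.

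Clec4f, Vsig4 and Timd4 encode recognition receptors of Kupffer cells. Clec4f, a C-type lectin that binds galactose-bearing glycans, is in mouse the marker most restricted to Kupffer cells. It had 7.51, 7.65 and 7.52 on the IL-6 arrays, against 7.55, 7.61 and 7.42 on the saline arrays. No array stood out, the 6 values spanned 0.224, the smallest range of the 10 genes, and the difference was 0.03 ± 0.08 (limma adjusted p = 0.977).

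Vsig4, the complement receptor CRIg that captures C3b-coated particles, had 6.56, 6.78 and 6.73 on the IL-6 arrays, against 6.38, 6.74 and 6.42 on the saline arrays. The IL-6 values were above those of saline replicates 1 and 3, while saline replicate 2 lay among them. The difference was 0.18 ± 0.11 (limma adjusted p = 0.870). Timd4 encodes TIM-4, a receptor for phosphatidylserine on dying cells that recently recruited macrophages lack. It had 5.46, 5.34 and 5.12 in IL-6 livers, against 4.98, 5.19 and 4.99 in saline livers. IL-6 replicate 3 lay below saline replicate 2, and the other IL-6 values lay above all saline values. Timd4 had the largest difference of the 10, 0.25 ± 0.10, or 1.19-fold with a 95% interval of 1.01 to 1.40. Its limma adjusted p was 0.697. Over the 18 other settings tried, some of which could not move the difference, it stayed above 0, from 0.18 to 0.42. The limma adjusted p of Timd4 ran from 0.401 to 0.890 there.

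Marco, Cd163, Cd68 and Cd5l belong to scavenging. Marco, a scavenger receptor for bacteria and particles, varied most. It had 5.32, 6.02 and 5.27 on the IL-6 arrays, against 5.86, 5.07 and 5.41 on the saline arrays. IL-6 replicate 2 and saline replicate 1 were high and the other 4 arrays low, so the spread within each group (SD 0.42 for IL-6 and 0.39 for saline, n = 3 each) was several times the difference of 0.09 ± 0.23 (limma adjusted p = 0.977). The difference was -0.15 when IL-6 replicate 2 was left out and -0.10 when saline replicate 2 was.

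Cd163 takes up haemoglobin bound to the acute-phase protein haptoglobin. Its values were 6.59, 6.89 and 6.78 in IL-6 livers, against 6.28, 7.01 and 6.78 in saline livers. Both the highest and the lowest of the 6 values were saline arrays, with a difference of 0.06 ± 0.17 (limma adjusted p = 0.977). Cd68 encodes macrosialin, a glycoprotein of late endosomes and lysosomes. It had 6.04, 6.27 and 6.20 on the IL-6 arrays, against 6.11, 6.14 and 6.04 on the saline arrays. IL-6 replicate 1 was the lowest array and the other IL-6 arrays the highest, and the difference was 0.07 ± 0.08 (limma adjusted p = 0.951).

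Cd5l encodes the secreted protein AIM, an inhibitor of apoptosis with scavenger receptor domains that circulates bound to IgM. It was the only member with a negative difference. It had 6.78, 7.23 and 6.70 on the IL-6 arrays, against 7.19, 6.92 and 6.78 on the saline arrays. As in Marco, IL-6 replicate 2 and saline replicate 1 were the highest arrays, and the difference was -0.07 ± 0.15 (limma adjusted p = 0.974). Leaving out IL-6 replicate 3 or saline replicate 1 turned it to 0.04 or 0.05, and leaving out IL-6 replicate 2 gave -0.23.

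Mpeg1 encodes perforin-2, a pore-forming protein that macrophages turn on engulfed bacteria. It had 7.07, 7.08 and 7.10 on the IL-6 arrays, against 7.16, 6.82 and 6.80 on the saline arrays. The IL-6 values lay within 0.03 of each other and above saline replicates 2 and 3, but saline replicate 1 exceeded them all. The difference was 0.16 ± 0.10 (limma adjusted p = 0.877).

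Array by array, the members stood high together on IL-6 replicate 2 and were mixed on the other IL-6 arrays. Relative to each gene's saline mean, the 10 members averaged 0.01, 0.25 and 0.004 on IL-6 replicates 1, 2 and 3, against 0.04, 0.03 and -0.08 on saline replicates 1, 2 and 3. All 10 members were above their saline mean on IL-6 replicate 2, and 5 of 10 on each of the other IL-6 arrays. IL-6 replicate 2 was the highest array in 7 of 10 members and in 18.7% of all genes. Saline replicate 3 was the lowest array in 4 of 10 members and in 12.5% of all genes. In pairs of single arrays, IL-6 replicate 2 exceeded saline replicates 1, 2 and 3 in 9, 9 and 10 of 10 members. IL-6 replicate 1 exceeded them in 4, 4 and 6 members, and IL-6 replicate 3 in 4, 3 and 8. Over all genes, the same 9 pairs gave shares from 46.5% to 54.2%.

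**Figure D3:**
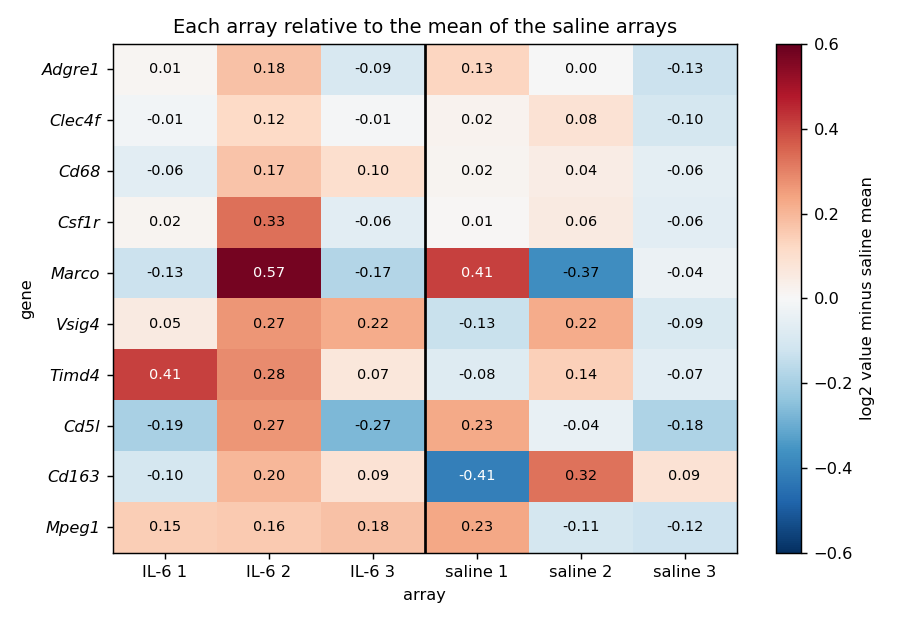
Each Kupffer cell gene on each array as the log2 value minus the gene's mean over the saline arrays, IL-6 arrays left of the vertical line and saline arrays right of it. Red is above and blue below the saline mean, and the numbers in the cells are the plotted values. The column of IL-6 replicate 2 is above 0 in all 10 rows, while Marco (0.41) and Cd163 (-0.41) go opposite ways on saline replicate 1.

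The members did not share 1 order of arrays. Marco, Cd5l and Adgre1 had IL-6 replicate 2 and saline replicate 1 as their highest arrays. Vsig4, Timd4 and Cd163 had saline replicate 1 as their lowest. On that array Marco was 0.41 above its saline mean, and Cd163 was 0.41 below it. The labels name no batch. Over all genes, the first principal component (31.6% of the variance) divided IL-6 from saline arrays, and on the second (23.1%) IL-6 replicate 3 (13.15) and saline replicate 2 (11.6) lay away from the other 4 arrays (-9.65 to -1.83), IL-6 replicate 2 (-8.44) among them. Without both of these arrays all 10 members had positive differences, their median was 0.10 and 0 were called by limma. The IL-6 arrays left were replicates 1 and 2, on which the members averaged 0.01 and 0.25 above the mean of all saline arrays. IL-6 replicate 2 thus weighed more in that fit.

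Markers of other liver cell types were read on the same arrays. The mean over the 10 sinusoidal endothelial markers was low on IL-6 replicate 2, where the mean of the Kupffer genes was high. The endothelial markers averaged 0.08, -0.15 and 0.07 from their saline mean on IL-6 replicates 1, 2 and 3, against 0.03, -0.002 and -0.03 on the saline arrays in the same order. Lyve1, at 7.84 on that array against a saline mean of 8.465, and Gpr182, at 6.03 against 6.43, lay furthest below, while Clec4g, Pecam1 and Fcgr2b were above their saline means. The mean log2 level of the 10 ran from 7.46 to 7.69 in IL-6 livers and from 7.58 to 7.65 in saline livers. The mean over the 8 hepatocyte markers measured stayed within 0.05 of its saline level on every array, while single markers ranged more widely. Alb, which encodes albumin, averaged 13.42 ± 0.03 in IL-6 livers and 13.39 ± 0.02 in saline livers (SD, n = 3 each). The part of these shifts in the member values was not tested.

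None of the 10 endothelial, 8 hepatocyte, 10 stellate cell, 10 dendritic cell, 9 T and NK cell, 7 B cell, 3 erythroid and 6 cholangiocyte markers measured was called by limma, with list medians from -0.06 for T and NK cells to 0.05 for cholangiocytes. At an unadjusted p of 0.05, the dendritic cell marker Cd209a (0.23 ± 0.08) and the cholangiocyte marker Sox9 (0.41 ± 0.11) passed, and the other 6 lists had 0 (limma adjusted p = 0.626 and 0.326). Over all genes 6.62% passed unadjusted. Below the 25th percentile of level lay 6 of 9 T and NK cell, 3 of 7 B cell and 2 of 10 dendritic cell markers. So did 1 of 3 erythroid and 1 of 6 cholangiocyte markers. Of 10 neutrophil markers 1 was called higher, against 0.386% of all genes. It was S100a8, a subunit of the antimicrobial protein calprotectin, at 4.31, 4.35 and 4.08 in IL-6 livers, against 3.60, 3.51 and 3.69 in saline livers. That is a log2 difference of 0.65 ± 0.09 (limma adjusted p = 0.0211), at levels below the 25th percentile of all genes, and 8 of 18 other settings ended the call, among them the removal of IL-6 replicate 1 or 2 or of any saline array (largest limma adjusted p = 0.152). A filter at that percentile left S100a8 untested, and 7 of the 10 neutrophil markers lay below it, S100a9 and Ly6g among them. S100a9, the other calprotectin subunit, had -0.01 ± 0.07. Ly6g, a surface marker of neutrophils, passed unadjusted in the other direction (-0.27 ± 0.10, limma adjusted p = 0.655), and Elane, the gene of neutrophil elastase, had all IL-6 values below all saline values (-0.14 ± 0.09, limma adjusted p = 0.884).

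Of 23 measured genes on a list of other resident Kupffer cell genes, 1 rose, against 0.386% of all genes, 0 fell and 22 did not pass. The median difference of the 23 was 0.05. At an unadjusted limma p of 0.05, 4 of 23 passed, against 6.62% of all genes. Groups did not overlap in 3 higher and 0 lower of the 23, against 6.15% and 5.48% of all genes. The riser was Hmox1, the heme oxygenase that breaks down heme from engulfed red cells and that hepatocytes can make too. It had 7.52, 7.91 and 7.83 on the IL-6 arrays, against 7.09, 6.78 and 6.86 on the saline arrays, a log2 difference of 0.85 ± 0.12 (limma adjusted p = 0.0170). Its groups did not overlap, and the call was lost under 7 of 18 other settings, among them leaving out IL-6 replicate 2 or 3 or saline replicate 2 or 3 (limma adjusted p up to 0.332). The complement gene C1qb had a difference of 0.23 ± 0.10, the phospholipid transfer protein gene Pltp 0.58 ± 0.22 and the lectin gene Cd207 0.28 ± 0.10, none of which passed (limma adjusted p = 0.716, 0.636 and 0.615). Like the members, this list was highest on IL-6 replicate 2, averaging 0.10, 0.20 and 0.06 on IL-6 replicates 1, 2 and 3, against 0.07, -0.01 and -0.06 on the saline arrays.

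The regulators of Kupffer cell identity held 1 riser among 19 measured, against 0.386% of all genes, with 0 lower and a median of -0.01. At an unadjusted limma p of 0.05, 4 of 19 passed, against 6.62% of all genes. Groups did not overlap in 3 higher and 0 lower of the 19, against 6.15% and 5.48% of all genes. Id3, an inhibitor of helix-loop-helix factors that mouse Kupffer cells need to develop, had 7.52, 7.25 and 7.17 in IL-6 livers, against 6.52, 6.24 and 6.12 in saline livers. Every IL-6 value was above every saline value, with a log2 difference of 1.02 ± 0.12 (limma adjusted p = 0.00772), a call lost when every probe set was tested and when both IL-6 replicate 3 and saline replicate 2 were left out (largest limma adjusted p = 0.123). Other liver cells express Id3, and the arrays do not show which cells the signal came from. The ligands of the CSF1 receptor did not pass, with Csf1 at -0.01 ± 0.12 and Il34 at -0.07 ± 0.11, nor did Spi1, which encodes PU.1, at -0.01 ± 0.07, Nr1h3, which encodes LXR alpha, at -0.04 ± 0.07, or Spic at 0.01 ± 0.09. These 5 were picked from the list for their roles, and Spic lay below the 25th percentile of level. The regulators with the smallest p that missed were Cebpb (0.38 ± 0.12), Maf (0.18 ± 0.07) and Bmp10 (0.23 ± 0.10), with limma adjusted p-values of 0.522, 0.686 and 0.750.

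Broader myeloid genes showed 0 calls. Of 25 pan-myeloid and phagocyte genes 0 passed, also at an unadjusted limma p of 0.05. Differences were above 0 in 18 of 25, against 51.1% of all genes, with a median of 0.09 against 0.003 for all genes. The smallest p-values there belonged to Fcgr3 (0.16 ± 0.09), Lyz2 (0.18 ± 0.11) and Tyrobp (0.16 ± 0.11). The list averaged 0.04, 0.16 and -0.01 on the IL-6 arrays, against 0.14, -0.08 and -0.06 on the saline arrays, so the groups overlapped. Of 14 genes of monocytes and recruited macrophages 0 were called, with a list median of 0.11. At an unadjusted limma p of 0.05, 1 of 14 passed against 6.62% of all genes, S100a6 at 0.39 ± 0.10 (limma adjusted p = 0.353). Ccr2, the chemokine receptor of inflammatory monocytes, had 0.12 ± 0.08 and Fn1 0.15 ± 0.07. Of the 14 genes, 5 lay below the 25th percentile of level, Ccr2 among them (mean 3.175 in IL-6 and 3.051 in saline livers). Fn1 averaged 11.56 in IL-6 and 11.40 in saline livers. Which cells these signals came from is not shown by the arrays.

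Macrophage activation genes, among them cytokines, chemokines and costimulatory receptors, had 0 of 25 called in limma, with a median of 0.03. Of the 25, 4 passed at an unadjusted limma p of 0.05, against 6.62% of all genes. Groups did not overlap in 6 higher and 3 lower genes of 25, against 6.15% and 5.48% of all genes, and 12 of the 25 lay below the 25th percentile of level. Ccl3, a chemokine that macrophages release, had 4.33, 4.64 and 4.32 on the IL-6 arrays, against 3.92, 4.04 and 4.20 on the saline arrays. Its groups were apart with a difference of 0.37 ± 0.11 that missed the threshold (limma adjusted p = 0.443). The costimulatory gene Cd80 (0.25 ± 0.09) and the transglutaminase gene Tgm2 (0.23 ± 0.09) were apart too and missed it (limma adjusted p = 0.626 and 0.645), and a second Cd80 probe set had 0.01. The other genes apart were Il10, Il4ra and Retnla on the higher side and Ccl2, Arg1 and Marcks on the lower side, of which Marcks (-0.20 ± 0.08) passed unadjusted. Arg1 averaged 12.19 in IL-6 and 12.32 in saline livers, near the level of the hepatocyte marker Pck1 (12.29 and 12.41). The arrays do not show which cells the signals of this list came from.

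In the IL-6 receptor and STAT3 response list, 8 of 14 measured genes rose and 0 fell, against 0.386% and 0.0351% of all genes. The median over the 14 was 0.69. The list joins genes of IL-6 receptor chains and JAK kinases with genes known to answer IL-6. It was written with earlier results of these data in view and is not independent evidence. Next to Socs3 the risers were Pim1 (1.52 ± 0.08), Cish (1.22 ± 0.16), Bcl3 (1.18 ± 0.08), Irf1 (1.07 ± 0.11), Junb (1.07 ± 0.10), Socs2 (0.86 ± 0.13) and Stat3 (0.52 ± 0.09), the last at the edge of the threshold (limma adjusted p = 0.04996). Stat3 lost its call under 10 of 18 other settings, among them the removal of IL-6 replicate 1 or 3 or of any saline array (largest limma adjusted p = 0.411). Socs2 lost it when any IL-6 array or saline replicate 2 or 3 was removed, and Cish when saline replicate 1 or 3 was (largest limma adjusted p over all settings 0.313 and 0.152). Testing every probe set ended the calls of Stat3, Socs2 and Cish, and also of Junb (largest limma adjusted p = 0.0651) and Irf1 (0.0813). It left 3 genes of the list called. Irf1 also lost its call without both IL-6 replicate 3 and saline replicate 2. Second probe sets had differences of 1.79 for Socs3 and 1.41 for Socs2, but 0.02 for Irf1, whose probe sets thus disagree. The receptor chain Il6st had 0.29 ± 0.08, Il6ra had -0.20 ± 0.10 and Tyk2 had 0.11 ± 0.08, none of which passed (limma adjusted p = 0.362, 0.798 and 0.899). The list averaged 0.78, 0.71 and 0.86 on IL-6 replicates 1, 2 and 3, against 0.06, -0.02 and -0.03 on the saline arrays. IL-6 replicate 2, the highest array for the Kupffer genes, was thus the lowest of the IL-6 arrays here.

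**Figure D4:**
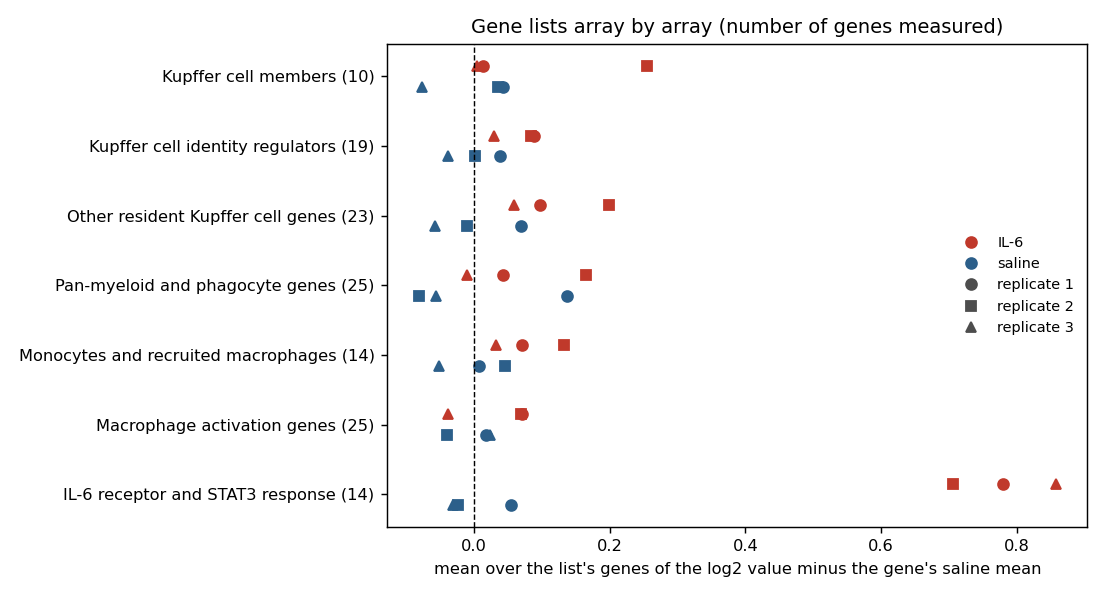
Mean over the genes of each list of the log2 value minus the gene's saline mean, for IL-6 arrays (red, upper row of each list) and saline arrays (blue, lower row), with marker shape giving the replicate and the number of genes measured in brackets. The 10 Kupffer cell genes reach 0.25 on IL-6 replicate 2 and stay near 0 on the other IL-6 arrays, while the STAT3 response list lies between 0.71 and 0.86 on all 3.

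The genes whose 6 values tracked the members' mean profile most closely were Mcf2, Nrg2, Gemin8, Fbxw24 and Dnase1l2. Their root-mean-square distances from that profile, over 6 arrays and after centring each gene, ran from 0.015 to 0.027 on the log2 scale, and they were the closest of 10140 genes that varied at least as much as the profile. The members' own distances ran from 0.045 to 0.276. None of these 5 was called by limma (adjusted p from 0.897 to 0.964), and Mcf2 and Fbxw24 lay below the 25th percentile of level. Their likeness is a description of these 6 arrays.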

How the data were processed

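Transcripts were measured in whole liver on 6 Affymetrix arrays, 3 IL-6 and 3 saline. The deposited values are log2 expression per probe set made by the authors with RMA, per the submitters' processing notes, which corrects background, normalizes between arrays by quantiles and summarises probes. The sources used here do not give its version or a genome build. This step can compress large changes and removes shifts common to most genes. Of 35556 probe sets, 21789 carried exactly 1 gene symbol in the platform table, 1621 several and 12146 were not listed there. The probe set with the highest mean was kept for each gene, leaving 19938 genes with no filter on level.

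All genes were fitted together with limma 3.58.1 in R 4.3.3 (lmFit, eBayes), IL-6 minus saline, two-sided, with Benjamini-Hochberg adjustment over all genes and a threshold of 0.05. An exact permutation test of 3 against 3 arrays cannot give a p under 0.1. The fit was tested on simulated data. Members were named with all their values. From each of 7 gene lists every called gene and up to 3 others of smallest p were named, with Socs3 as a check and the 5 genes nearest in profile. Further list genes, picked for their role, for their value on a single array or because their groups lay apart, were chosen after their values were seen. The 9 lists of cell type markers are given as counts and means, with single markers named after their values were seen. Members and lists were chosen with earlier results of these data known. Listed genes with no probe set of their own symbol alone were not analysed here. Promoter sequences come from RefSeq tables on GRCm38.p6. Plots used matplotlib 3.10.9 (Python 3.11.15). Alternatives were other normalizations, a filter at the 25th percentile, other rules for probe sets, other variance priors, array weights, a replicate block, a threshold of 0.1 and leaving out arrays.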

Additional observations from a re-analysis of the deposited data

How the results depend on the processing

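Across 18 alternatives, 0 of 10 Kupffer cell genes were called by limma under any (lowest adjusted p = 0.401, for Timd4 without both IL-6 replicate 3 and saline replicate 2). Of 180 alternative differences 12 turned sign, all of them where arrays were left out. Many of the 180 could not move. The filter, the probe set rules, the variance priors, the replicate block and the threshold of 0.1 leave each member's difference as it was. Vsig4, Timd4, Mpeg1 and Cd68 kept a positive sign throughout. Leaving out 1 array at a time gave 4 to 10 members above 0 (main 9), 0 to 2 members with groups apart (main 0), a median from -0.01 to 0.14, and 45 to 67 higher and 3 to 5 lower genes among all, against 77 and 7. With fewer arrays groups separate more easily: 20.6% to 23.4% of all genes did so with 1 array left out. Over the same settings Adgre1 ran from -0.042 to 0.096, Clec4f from -0.020 to 0.075, Csf1r from -0.022 to 0.175, Marco from -0.152 to 0.296, Cd5l from -0.231 to 0.048 and Cd163 from -0.14 to 0.22. Sign turned without IL-6 replicate 2 in Adgre1, Clec4f, Csf1r, Marco (-0.152) and Cd163, without saline replicate 3 in Adgre1 and Clec4f, without saline replicate 2 in Marco, and without saline replicate 1 in Cd163 and Cd5l. Cd5l also turned without IL-6 replicate 3, and was 0.015 without both IL-6 replicate 3 and saline replicate 2. Leaving out both of those arrays gave 3 members apart (35.2% of all genes), 31 higher and 2 lower genes. Testing every probe set gave 16 higher and 1 lower, and a threshold of 0.1 gave 12 lower. With the replicate number as a block, 0 members were called, while Hmox1, Stat3 and S100a8 lost their calls. The members' median of 0.08 could not change under this block, because each replicate number occurs once in each group. The deviations of same-numbered arrays correlated at 0.08, -0.12 and -0.09, so the numbers were not taken as pairs.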
